A study of Mus musculus with 6 samples.

Results

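Mitochondrial biogenesis regulators are the nuclear genes that set how much mitochondrial DNA a cell keeps and how strongly the nuclear and mitochondrial genomes are read for respiration. The set was fixed by name as 10 genes: the coactivators Ppargc1a, Ppargc1b and Pprc1, the transcription factors Esrra, Nrf1 and Gabpa, and the mitochondrial DNA factors Tfam, Tfb2m, Polrmt and Polg. All 10 were found among the 41921 rows of the count table, 9 by the deposited symbol. Esrra had no symbol there and was taken from the mouse protein match in the deposited description of its row. Of the 13158 genes with enough reads to test, 9 were members, and Ppargc1a fell below the filter on low counts.

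RAW264.7 is a mouse macrophage-like cell line in which the cytokine RANKL can start the programme of osteoclasts, the cells that resorb bone. Gene expression was read by RNA sequencing in 6 wild-type libraries, 3 labelled RANKL intervention and 3 labelled albiflorin intervention, albiflorin being a monoterpene glycoside of peony. Every sample is labelled as undergoing differentiation into osteoclasts, and the protocol given for all of them is RANKL at 50 ng/mL on cells 3 days past confluence. Whether RANKL was given together with albiflorin is not said elsewhere, no source used here states at what dose or for how long albiflorin was given, and no untreated sample was analysed here. The labels name no separate cultures. The p-values below set the difference between the groups against the spread among these libraries, and that spread may be technical.

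The 3 coactivators of the PGC-1 family bind transcription factors rather than DNA and raise the output of genes for respiration. Among the factors they act through are ERR alpha (Esrra), NRF1 and the ETS-family protein GABP, whose DNA-binding subunit is made from Gabpa. These in turn act on genes such as Tfam, whose product packages mitochondrial DNA and helps start its transcription by the polymerase POLRMT with TFB2M, while POLG copies the mitochondrial genome. In osteoclasts, which carry many mitochondria, PGC-1 beta (Ppargc1b) is known as the family member linked to mitochondrial content during differentiation.

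Libraries held 13673284 to 15489482 counts, so 3 counts, the limit that a count of 0 allows, came to 0.191 to 0.223 CPM, the normalised read count used below. Summed over the list, 9 macrophage markers lay between 3770 and 4050 CPM in the RANKL libraries and between 3840 and 4020 CPM in the albiflorin libraries. The members were read unevenly. Csf1r gave the largest part of the sum, with a mean of 1940 ± 47.9 CPM for RANKL against 1730 ± 81.5 for albiflorin (SD, n = 3). Mrc1 averaged only 1.33 ± 0.0846 against 1.17 ± 0.249 CPM. Itgam, too low to test, averaged 0.0245 ± 0.0424 CPM for RANKL and had no count in the albiflorin group. The 12 osteoclast markers summed to 493 to 549 CPM with RANKL and 474 to 490 CPM with albiflorin. Of the 9 tested, 1 was called higher (11.1%, against 12.4% of all tested genes) and 1 lower (11.1%, against 11.4%). Both shares were near those of all tested genes. Acp5, the tartrate-resistant phosphatase, rose from 22.9 ± 2.11 to 28.0 ± 1.59 CPM (SD, n = 3; adjusted p = 0.0371, edgeR's quasi-likelihood test) and Nfatc1, the transcription factor that RANKL induces, fell from 143 ± 7.45 to 122 ± 5.5 CPM (adjusted p = 0.018). The list's proton pump subunit Tcirg1 was at 248 ± 21.5 and 230 ± 1.96 CPM and the fusion protein Dcstamp at 18.3 ± 0.216 and 19.0 ± 0.976 CPM, while the protease Ctsk was at 0.457 ± 0.121 and 0.693 ± 0.2 CPM and Calcr, the calcitonin receptor, had no count in any library. Of 8 tested macrophage markers, Cd14 rose by 0.26 (adjusted p = 0.0119) and Adgre1 was lower at -0.30 (adjusted p = 0.00933, both edgeR's quasi-likelihood test, log2 scale). That is 12.5% higher and 12.5% lower, near the 12.4% and 11.4% of all tested genes. Trends of the counts with mRNA length or gene length were also removed, as described below. Nfatc1 was then not called (adjusted p = 0.156 for mRNA length and 0.209 for gene length). Neither was Acp5 (0.632 and 0.618) nor Cd14 (0.299 and 0.611). Adgre1 stayed called (0.0146 and 0.00415, all edgeR's quasi-likelihood test). The part of these marker changes in the results below was not tested. Fibroblast markers summed to at most 0.725 CPM and lymphocyte markers to at most 1.85 CPM in any library. In bulk libraries such as these, fewer cells of a type and less RNA per cell cannot be told apart.

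Across the 9 tested regulators, Tfam rose with albiflorin, and Ppargc1b, Pprc1 and Polg fell. The other 5 did not pass the test: Esrra, Nrf1, Gabpa, Tfb2m and Polrmt. No change exceeded 0.3 on the log2 scale in either direction, and the median over the 9 was -0.055, against 0.0056 over all tested genes. A gene was called at an adjusted p under 0.05 in edgeR's quasi-likelihood test with Benjamini-Hochberg adjustment over all tested genes. By that rule 1 of 9 regulators was higher, where 12.4% of all tested genes were, and 3 of 9 were lower, where 11.4% of all tested genes were. The libraries of the 2 groups did not overlap for 1 regulator that was higher with albiflorin (20.8% of all tested genes) and for 4 that were lower (19.3%).

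**Figure D1:**
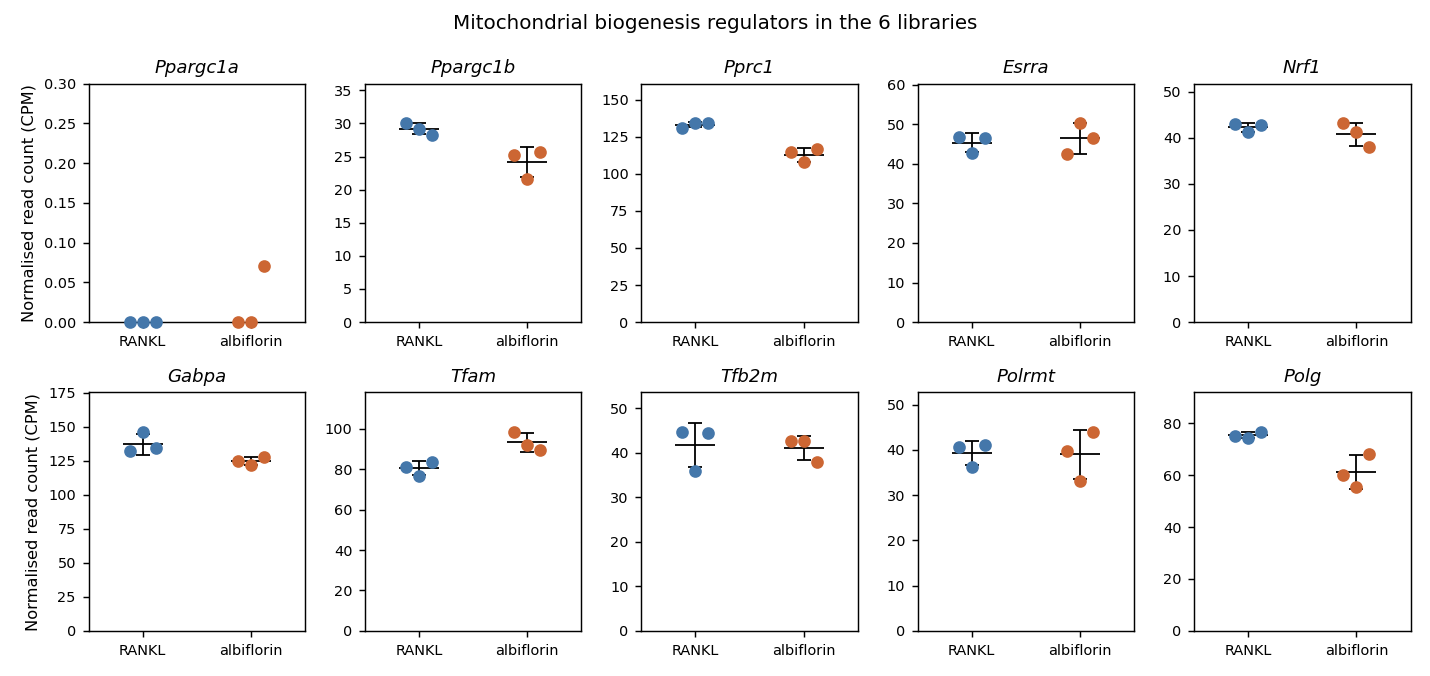
Normalised read count (CPM, linear axis from 0) of each of the 10 regulators in the 3 RANKL libraries (blue) and the 3 albiflorin libraries (orange); points are libraries in the order of their replicate numbers, and bars are the mean and SD, left out for Ppargc1a. Tfam lies higher in every albiflorin library, Ppargc1b, Pprc1, Gabpa and Polg lie lower in every albiflorin library, and Ppargc1a has 1 count in 1 library.

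Of the coactivators, Ppargc1a, the founding member of the family, was not detected in these counts. It had 0 counts in 5 libraries and 1 count in albiflorin replicate 3, or 0.0703 CPM. Both groups were under the limit of 3 counts, so no fold change is given. Cox17 and Sco2, from the list of nuclear targets below, were also at 0 CPM in both groups. Whether a 0 in these counts reflects absent RNA or the way reads were assigned to genes was not tested. The gene is listed on chromosome 5 from 52521630 to 52642764 on the minus strand.

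Ppargc1b, the closest paralog of Ppargc1a, was read in every library. Its RANKL libraries had 409, 458 and 420 counts, or 30.0, 29.2 and 28.3 CPM, and its albiflorin libraries 383, 291 and 365 counts, or 25.3, 21.6 and 25.7 CPM. Every albiflorin library lay below every RANKL library, and albiflorin replicate 2 was the lowest. The means were 29.2 ± 0.842 and 24.2 ± 2.22 CPM (SD, n = 3), a log2 fold change of -0.27 ± 0.0919 (SE) or 0.83-fold, with an adjusted p of 0.043 in edgeR's quasi-likelihood test. The call was narrow. DESeq2 gave an adjusted p of 0.0501, and leaving out any library but albiflorin replicate 3 ended it, with adjusted p between 0.0653 and 0.163 in edgeR's quasi-likelihood test. In the 5 libraries where Ppargc1a had no count, Ppargc1b was at least 172-fold higher per kilobase of mRNA, taking Ppargc1a at 3 counts in each library. This bound holds only if the 0 counts of Ppargc1a are a matter of depth. Its locus is on chromosome 18 from 62831623 to 62948640, on the minus strand, and holds Mir378a, which had no count.

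Pprc1 encodes PRC, the family member that follows growth signals. It was read at 131, 134 and 134 CPM with RANKL and at 115, 108 and 117 CPM with albiflorin. The RANKL libraries were nearly level and all albiflorin libraries were below them. The means of 133 ± 1.63 and 113 ± 4.72 CPM (SD, n = 3) gave a log2 fold change of -0.23 ± 0.0595 (SE), or 0.851-fold, with an adjusted p of 0.0101 in edgeR's quasi-likelihood test. Leaving out each library in turn gave adjusted p between 0.0093 and 0.0365 in the same test. The gene lies on chromosome 19 from 46841109 to 46871125 on the plus strand. Ppargc1b and Pprc1 kept nearly the same proportion: 0.229, 0.218 and 0.212 counts of Ppargc1b for each count of Pprc1 with RANKL, and 0.22, 0.201 and 0.22 with albiflorin, ranges that overlap.

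None of the 3 nuclear transcription factors was called, and each interval below gives the sizes of change that these libraries leave possible. Esrra, the orphan nuclear receptor through which PGC-1 proteins drive oxidative genes, was at 46.8, 42.6 and 46.5 CPM with RANKL and 42.4, 50.2 and 46.6 CPM with albiflorin. These ranges overlapped, and the log2 fold change of 0.034 had a 95% interval from -0.14 to 0.20 (adjusted p = 0.804, edgeR's quasi-likelihood test). It is listed on chromosome 19 from 4088753 to 4102965 on the minus strand.

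Nrf1, nuclear respiratory factor 1, was at 43.0, 41.2 and 42.8 CPM with RANKL and 43.1, 41.2 and 38.0 CPM with albiflorin. The groups overlapped, albiflorin replicate 3 was the lowest, and the log2 fold change of -0.055 had a 95% interval from -0.22 to 0.11 (adjusted p = 0.656, edgeR's quasi-likelihood test). Nrf1 is on chromosome 6 from 28700585 to 28815631 on the plus strand.

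Gabpa was at 132, 146 and 134 CPM with RANKL and 125, 122 and 128 CPM with albiflorin. The groups did not overlap, with RANKL replicate 2 standing highest. The log2 fold change of -0.13 had a 95% interval from -0.26 to 0.00084 and missed the threshold (adjusted p = 0.143, edgeR's quasi-likelihood test). Gabpa (chromosome 16 from 88191574 to 88221651, plus strand) overlaps the opposite-strand gene Atp5j, a subunit of ATP synthase, over 701 bases. Atp5j was higher by 0.25 ± 0.0606 on the log2 scale (adjusted p = 0.00732, edgeR's quasi-likelihood test). No source used here says if strand was used in counting, so how reads in the overlap were assigned is not known.

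Tfam was the regulator that rose. Its RANKL libraries had 1108, 1206 and 1237 counts, or 81.3, 76.8 and 83.5 CPM, and its albiflorin libraries 1492, 1240 and 1271 counts, or 98.4, 92.2 and 89.4 CPM. Each albiflorin library lay above each RANKL library, and albiflorin replicate 1 was the highest. From means of 80.5 ± 3.37 and 93.3 ± 4.62 CPM (SD, n = 3) the log2 fold change was 0.21 ± 0.0647 (SE), or 1.16-fold, with a 95% interval from 0.076 to 0.35 and an adjusted p of 0.0254 in edgeR's quasi-likelihood test. Without albiflorin replicate 1 the log2 fold change was 0.16 and the adjusted p 0.169, and without RANKL replicate 1 or 2 the adjusted p was 0.0633 or 0.0906 in edgeR's quasi-likelihood test. The gene is on chromosome 10 from 73744069 to 73756794 on the minus strand.

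Tfb2m, which opens the mitochondrial promoters together with POLRMT, was at 44.6, 35.9 and 44.5 CPM with RANKL and 42.6, 42.5 and 38.0 CPM with albiflorin. RANKL replicate 2 was the lowest of the 6 libraries and the groups overlapped. The log2 fold change of -0.021 had a 95% interval from -0.22 to 0.17 (adjusted p = 0.899, edgeR's quasi-likelihood test). Tfb2m lies on chromosome 1 from 191903515 to 191935512 on the minus strand.

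Polrmt, the RNA polymerase that transcribes mitochondrial DNA and primes its replication, was at 40.6, 36.3 and 41.0 CPM with RANKL and 39.7, 33.2 and 43.9 CPM with albiflorin. Albiflorin libraries held both the lowest and the highest value. The log2 fold change of -0.01 had a 95% interval from -0.22 to 0.20 (adjusted p = 0.957, edgeR's quasi-likelihood test). Its position is chromosome 10 from 83053180 to 83063727 on the minus strand.

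Polg, the catalytic subunit of the mitochondrial DNA polymerase, fell by 0.30 on the log2 scale, the largest change among the 9. Its RANKL libraries had 1025, 1166 and 1135 counts, or 75.2, 74.3 and 76.6 CPM, and its albiflorin libraries 911, 748 and 971 counts, or 60.1, 55.6 and 68.3 CPM. The RANKL libraries were nearly level, every albiflorin library was lower, and albiflorin replicate 2 was the lowest. The means of 75.4 ± 1.14 and 61.3 ± 6.43 CPM (SD, n = 3) were 0.814-fold apart (SE 0.0749 on the log2 scale, adjusted p = 0.00958, edgeR's quasi-likelihood test). Polg (chromosome 7 from 84528771 to 84550124, minus strand) overlaps the opposite-strand gene Fanci, of the Fanconi anaemia DNA repair pathway, over 4034 bases. Fanci had a log2 fold change of -0.21 ± 0.0879 and was not called (adjusted p = 0.0918, edgeR's quasi-likelihood test). As for Gabpa, how reads in the overlap were assigned is not known.

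Set against each other within a library, which needs no scaling between libraries, Tfam over Polg did not overlap between the groups. There were 1.08, 1.03 and 1.09 counts of Tfam for each count of Polg with RANKL, and 1.64, 1.66 and 1.31 with albiflorin. Tfam over Pprc1 went from 0.621, 0.574 and 0.624 to 0.857, 0.856 and 0.766. Tfam over Tfb2m was 1.82, 2.14 and 1.87 with RANKL and 2.31, 2.17 and 2.35 with albiflorin, a narrow gap between RANKL replicate 2 and albiflorin replicate 2. These ratios carry the same differences as the fold changes above and are given without a test.

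Promoter sequence is shown for the 4 mitochondrial DNA factors because they hold letters of a motif bound by one of the transcription factors above, while 1 of them rose, 1 fell and 2 were not called. RefSeq windows (GRCm38.p6) from 250 bases before to 50 bases after the gene start were used for 9 of the 10 regulators, Nrf1 with 2 windows. No window of Ppargc1b was searched, so nothing is said here of motifs at its start. Both strands were searched for an NRF1 motif (GCGCANGCG, in 6.25% of all 32851 windows of that length), a GABP or other ETS-family motif (CCGGAAGT, 3.89%), an ERR motif (TCAAGGTCA, 0.423%) and the cyclic AMP response element (TGACGTCA, 1.79%). The stretches below run 5′ to 3′ on the gene's strand from 90 bases before to 30 bases after the start, with the matched letters in capitals.
Tfam (chr10:71238015-71238134, minus strand): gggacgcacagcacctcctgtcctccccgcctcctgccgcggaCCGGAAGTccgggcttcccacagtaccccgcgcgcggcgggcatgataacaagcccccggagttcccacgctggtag
Polg (chr7:79466244-79466363, minus strand): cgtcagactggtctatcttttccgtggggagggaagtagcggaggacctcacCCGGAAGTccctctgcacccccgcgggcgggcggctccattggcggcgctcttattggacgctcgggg
Polrmt (chr10:79746552-79746671, minus strand): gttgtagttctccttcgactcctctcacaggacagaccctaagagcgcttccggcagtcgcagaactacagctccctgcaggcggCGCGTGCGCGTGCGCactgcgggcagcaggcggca
Tfb2m (chr1:179546247-179546366, minus strand): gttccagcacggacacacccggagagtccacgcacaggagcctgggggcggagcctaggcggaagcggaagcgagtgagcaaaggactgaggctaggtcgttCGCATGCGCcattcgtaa
The same ETS-family letters stand 47 bases before the start of Tfam and 38 bases before the start of Polg, in the same orientation, in the regulator that rose and in one that fell. The Polrmt stretch holds an overlapping pair of NRF1 matches across its start, and the Tfb2m stretch holds 1 match 12 bases past its start, both on the reverse strand; neither gene was called. Esrra has an NRF1 match 141 bases before its start, outside the lengths shown. No window used held the ERR or the cyclic AMP letters, and those of Ppargc1a, Pprc1, Nrf1 and Gabpa held none of the 4 motifs. A match describes letters in a window and is not a measured binding site.

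**Figure D2:**
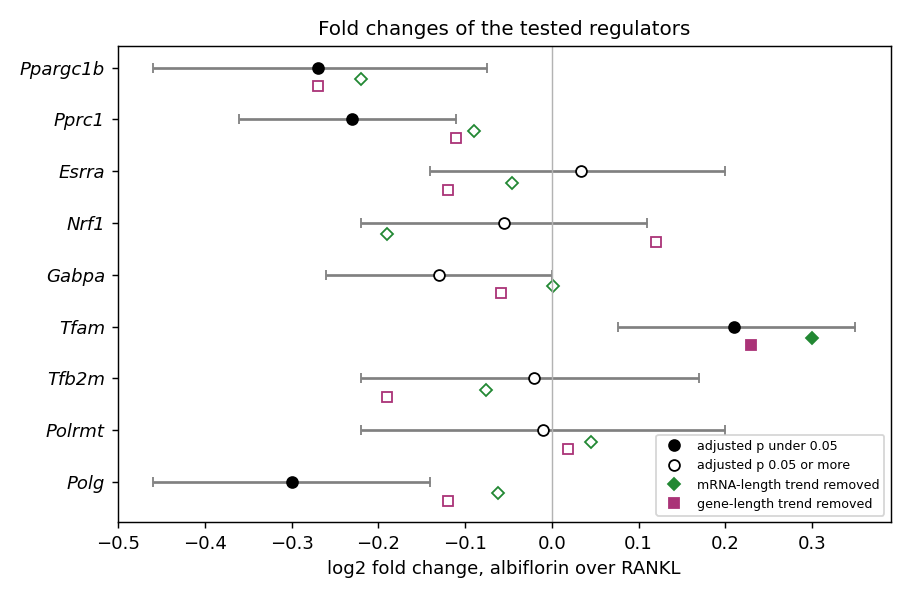
Log2 fold change, albiflorin over RANKL, of the 9 tested regulators with 95% intervals from edgeR's quasi-likelihood test, beside the values after a trend with gene length or mRNA length was removed; filled symbols were called and open ones were not. Tfam lies to the right of 0 and stays called with either trend removed, while Pprc1 and Polg move towards 0 and lose their calls.

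In the pathway lists below, those with the longest and the shortest transcripts had median fold changes of opposite sign. The list with the longest median mRNA (4320 bases) had a median log2 fold change of -0.14 and that with the shortest (1920 bases) 0.19. The others lay between, at 0.0089, 0.12 and 0.15 for 2370, 2420 and 2440 bases, and did not fall with length among themselves. Over all tested genes, removing the mRNA-length trend took the share called higher from 12.4% to 4.87% and that called lower from 11.4% to 5.46%. No slope over all genes was computed. The principal mRNA of Polg is 7837 bases long, that of Pprc1 5246, of Tfam 4167 and of Ppargc1b 3656. When each library's trend with mRNA length was removed, Tfam was higher by 0.30 on the log2 scale (adjusted p = 0.00677, edgeR's quasi-likelihood test), and it remained higher with the trend on the listed gene length removed (0.23, adjusted p = 0.0153). With the same mRNA-length correction Polg was at -0.062 and Pprc1 at -0.09, and neither was called (adjusted p = 0.584 and 0.269, edgeR's quasi-likelihood test). Ppargc1b stood at -0.22 with an adjusted p of 0.115, and at -0.27 with an adjusted p of 0.05 for the listed gene length, just past the threshold in edgeR's quasi-likelihood test.

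With the mRNA-length trend removed, 1 of the 9 regulators was thus called higher (4.87% of all tested genes) and 0 lower (5.46%). With the gene-length trend removed the counts were again 1 higher (7.18%) and 0 lower (7.96%). The part of length in the lower values of Polg and Pprc1 was not tested. Nrf1 showed how far the choice of length reaches: its listed gene length is 10270 bases and its principal mRNA 1879, and its log2 fold change was 0.12 after removal of the first trend and -0.19 after removal of the second, neither called (adjusted p = 0.331 and 0.0962, edgeR's quasi-likelihood test).

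**Figure D3:**
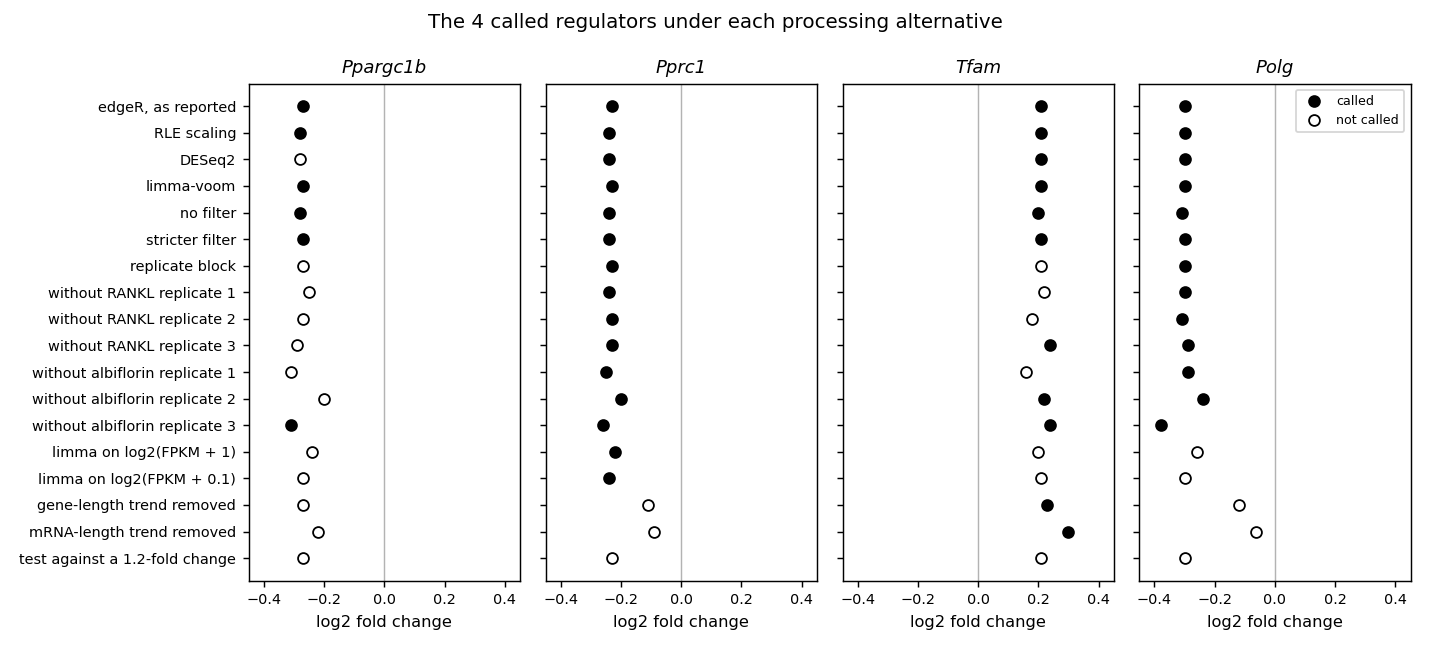
Log2 fold change of the 4 called regulators as reported and under the 17 alternatives, 1 row each; filled points were called at an adjusted p under 0.05 and open points were not. The sign of all 4 genes is the same in every row, Pprc1 is called in 14 of the alternatives, Polg in 12, Tfam in 10 and Ppargc1b in 5.

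Levels of the regulators were compared per length, as CPM per kilobase of principal mRNA. With RANKL the order was Gabpa at 27.5 ± 1.51, Pprc1 at 25.3 ± 0.31, Nrf1 at 22.5 ± 0.516, Esrra at 20.2 ± 1.06, Tfam at 19.3 ± 0.81, Tfb2m at 17.0 ± 2.05, Polrmt at 10.5 ± 0.702, Polg at 9.62 ± 0.146 and Ppargc1b at 7.98 ± 0.23 (SD, n = 3). Esrra and Tfam overlapped over the 3 libraries, as did Polrmt and Polg, and the other neighbours did not. On this scale the polymerases and Ppargc1b formed the low end of the order. With albiflorin Gabpa stayed first at 25.1 ± 0.572, followed by Tfam at 22.4 ± 1.11, Nrf1 at 21.7 ± 1.37, Pprc1 at 21.5 ± 0.901 and Esrra at 20.7 ± 1.73, which overlapped from neighbour to neighbour. Below them came Tfb2m at 16.8 ± 1.08, Polrmt at 10.4 ± 1.44, Polg at 7.82 ± 0.82 and Ppargc1b at 6.61 ± 0.608, each apart from the next.

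The authors' FPKM values, which divide by the listed gene length, gave another order. Nrf1 was the lowest of the 9 detected regulators, at 4.11 ± 0.091 FPKM with RANKL and 3.94 ± 0.243 FPKM with albiflorin (SD, n = 3). Gabpa, Esrra and Tfb2m led that order with RANKL, at 24.0 ± 1.34, 21.8 ± 1.12 and 21.8 ± 2.61 FPKM, ahead of Tfam at 18.1 ± 0.741 and Pprc1 at 17.6 ± 0.218 FPKM. With albiflorin Esrra at 22.3 ± 1.85, Gabpa at 21.9 ± 0.545, Tfb2m at 21.4 ± 1.34 and Tfam at 20.9 ± 1.01 FPKM overlapped from neighbour to neighbour, and Pprc1 followed at 14.9 ± 0.652 FPKM. The places of Nrf1, Pprc1 and Tfb2m thus depended on the length used, whereas Polrmt, Polg and Ppargc1b were low by either. Which transcripts of Nrf1 the cells made is not shown by values per gene.

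**Figure D4:**
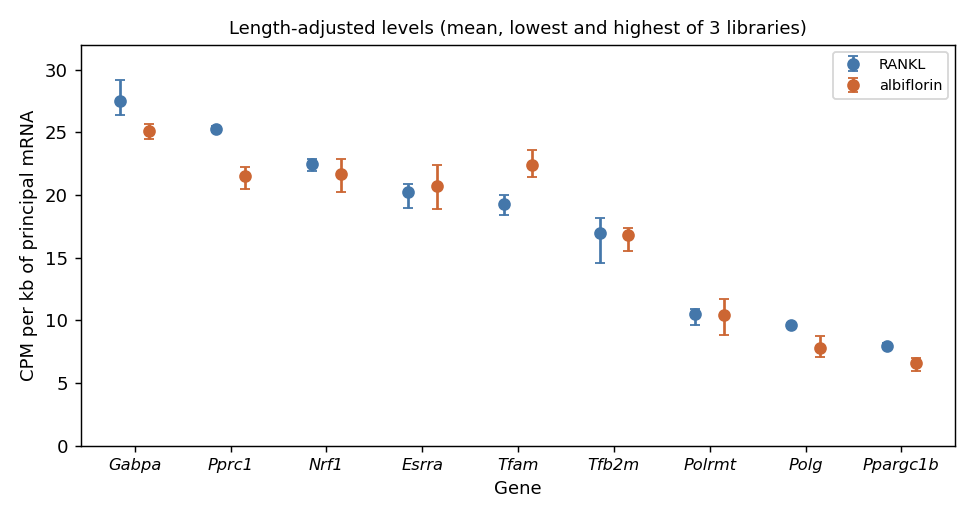
Level of the 9 tested regulators per kilobase of principal mRNA (CPM per kilobase, linear axis from 0), ordered by the RANKL mean; points are means of 3 libraries, RANKL in blue and albiflorin in orange, and bars run from the lowest to the highest library. On this scale Gabpa has the highest mean in both groups, Tfam overlaps Nrf1 with albiflorin, and Polrmt, Polg and Ppargc1b form the low end.

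For each called regulator, the 2 genes whose CPM followed it most closely over the 6 libraries were found among 9120 genes of at least 5 CPM, by the root mean square distance of log2 deviations. Nearest to Tfam were Ptpn6, the phosphatase SHP-1 of blood cells, at a distance of 0.0139, and Triap1 at 0.0158, where the median over all genes was 0.158. Nearest to Polg were Acadvl, an enzyme of fatty acid oxidation in mitochondria, at 0.0164 and Stim1, a calcium sensor of the endoplasmic reticulum, at 0.0213, where the median was 0.198. Dennd1a (0.0147) and Rnf157 (0.0157) lay nearest to Ppargc1b, and Stxbp5 (0.0158) and Cdk5rap2 (0.0184) to Pprc1. With so many genes and 6 libraries, close matches of this kind describe a shared shape and nothing more.

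Around the regulators, more partners and upstream factors of the PGC-1 network fell than rose. Of 50 tested genes in that list 17 fell (34%, against 11.4% of all tested genes) and 1 rose (2%, against 12.4%), with a median log2 fold change of -0.14. Among the 4 of smallest p were Crtc1, a coactivator of CREB that can switch on PGC-1 genes, at -0.67 ± 0.0941 (adjusted p = 0.000374), and Ep300, a histone acetyltransferase, at -0.62 ± 0.104 (adjusted p = 0.000856). Hcfc1, a host cell factor that binds PGC-1 and GABP proteins, was at -0.45 ± 0.0695 (adjusted p = 0.000558), and Ncoa2, a nuclear receptor coactivator, at -0.38 ± 0.066 (adjusted p = 0.000988, all edgeR's quasi-likelihood test). Prkag1, a regulatory subunit of the energy sensor AMPK, was the 1 that rose (0.35 ± 0.113, adjusted p = 0.0319, edgeR's quasi-likelihood test). The list's median mRNA length was 4320 bases. With the mRNA-length trend removed 11 were lower (5.46% of all tested genes were) and 0 higher (4.87%), at a median of -0.039, and the 4 lower genes named here stayed called. With the gene-length trend removed 9 were lower (7.96% of all tested genes) and 1 higher (7.18%), and Ncoa2 was no longer called (adjusted p = 0.0774, edgeR's quasi-likelihood test). Prkag1 was not called with either trend removed (adjusted p = 0.278 for mRNA length and 0.363 for gene length), and the 1 higher gene was Gabpb1, the partner subunit of Gabpa, named after its values were seen (adjusted p = 0.00538, and 0.0589 without the correction, edgeR's quasi-likelihood test).

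Of 27 tested genes for copying and keeping mitochondrial DNA, 3 rose (11.1%, against 12.4% of all tested genes) and 1 fell (3.7%, against 11.4%), at a median log2 fold change of 0.0089. Neither share exceeded the background. Ssbp1, which coats single-stranded mitochondrial DNA, rose by 0.31 ± 0.0811 on the log2 scale (adjusted p = 0.0109, edgeR's quasi-likelihood test) and stayed called after removal of the mRNA-length trend (adjusted p = 0.00677). Suclg1, a subunit of succinyl-CoA ligase, rose by 0.36 ± 0.0646 (adjusted p = 0.00121), Dguok, a deoxynucleoside kinase that supplies precursors, rose by 0.24 ± 0.0825 (adjusted p = 0.0443), and Lig3, the DNA ligase of mitochondria, was lower at -0.25 ± 0.079 (adjusted p = 0.0334, all edgeR's quasi-likelihood test). The Dguok call was narrow: it was lost with DESeq2 (adjusted p = 0.072) and when any 1 library was left out (adjusted p between 0.079 and 0.143, edgeR's quasi-likelihood test). Suclg1, Dguok and Lig3 were not called with the mRNA-length trend removed, where the direction of Dguok turned (-0.046). After removal of the gene-length trend Suclg1, Dguok and Ssbp1 stayed called and Lig3 did not, and the list had 4 higher and 1 lower.

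Genes for mitochondrial transcription and RNA handling showed 5 of 28 higher (17.9%, against 12.4% of all tested genes) and 0 lower (11.4% of all tested genes), at a median log2 fold change of 0.15. Slirp, which stabilises mitochondrial messenger RNAs, rose by 0.65 ± 0.129 on the log2 scale (adjusted p = 0.00229, edgeR's quasi-likelihood test) and was the 1 gene of the list called with the mRNA-length trend removed, though not with the gene-length trend removed. Hsd17b10, a subunit of mitochondrial RNase P, rose by 0.40 ± 0.0796 (adjusted p = 0.00245), Mterf3, a regulator of mitochondrial transcription and ribosome assembly, by 0.32 ± 0.0908 (adjusted p = 0.0175) and Rexo2, an oligoribonuclease, by 0.23 ± 0.0618 (adjusted p = 0.015, all edgeR's quasi-likelihood test). None of these 3 was called with either trend removed, and Rexo2 turned to -0.069 with the mRNA-length trend and -0.072 with the gene-length trend removed.

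Among textbook nuclear targets of these regulators, more rose than fell. Of 63 tested, 28 rose (44.4%, against 12.4% of all tested genes) and 4 fell (6.35%, against 11.4%), at a median log2 fold change of 0.19. Atp5o of ATP synthase was at 0.47 ± 0.0728 (adjusted p = 0.000573), Ndufs8 of complex I at 0.43 ± 0.0696 (adjusted p = 0.000726), Cox8a of cytochrome c oxidase at 0.40 ± 0.073 (adjusted p = 0.00136) and Sdhc of complex II at 0.37 ± 0.0599 (adjusted p = 0.000728, all edgeR's quasi-likelihood test). The 4 that fell were Mfn2, a fusion protein of the outer membrane, at -0.33 ± 0.0678, Acadvl at -0.30 ± 0.0858, Cpt1a, which admits fatty acids to mitochondria, at -0.21 ± 0.0612 and Ogdh of the citric acid cycle at -0.21 ± 0.0622. The list's median mRNA length was 1920 bases, and many of its members are small subunits. With the mRNA-length trend removed 6 were higher (4.87% of all tested genes) and 2 lower (5.46%) at a median of 0.012. After removal of the gene-length trend 16 were higher (7.18% of all tested genes) and 4 lower (7.96%). Of those named, Sdhc, Mfn2 and Acadvl stayed called in both (adjusted p = 0.000825, 0.0145 and 0.00899 for mRNA length, edgeR's quasi-likelihood test), while Cox8a turned to -0.085 and -0.016.

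Genes often used to gauge mitochondrial content overlap the target list and gave 5 of 11 higher (45.5%, against 12.4% of all tested genes) and 0 lower (11.4% of all tested genes), at a median log2 fold change of 0.12. Cox4i1 of cytochrome c oxidase rose by 0.38 on the log2 scale (adjusted p = 0.00213), Sdhb of complex II by 0.32 (adjusted p = 0.00579), and the prohibitins Phb by 0.30 (adjusted p = 0.00629) and Phb2 by 0.20 (adjusted p = 0.0229, all edgeR's quasi-likelihood test). With the mRNA-length trend removed none of these 4 was called, and Cox4i1 and Phb2 turned to -0.018 and -0.034. The 1 gene of the list called there was Tomm20, named after its values were seen (adjusted p = 0.00842, edgeR's quasi-likelihood test). Without the correction Tomm20 was at 136 ± 15.5 and 160 ± 15.5 CPM (SD, n = 3), and the groups overlapped. Its log2 fold change was 0.24 (adjusted p = 0.0468, edgeR's quasi-likelihood test), and it was not followed in the other alternatives. After removal of the gene-length trend 4 were called higher: Sdhb, Phb, Phb2 and Tomm20 (adjusted p = 0.0495, 0.0232, 0.0244 and 0.0218, edgeR's quasi-likelihood test). Cs, citrate synthase, named after its values were seen, was at 425 ± 11.1 and 428 ± 10.0 CPM (SD, n = 3; adjusted p = 0.911, edgeR's quasi-likelihood test). No row of the count table lay on the mitochondrial chromosome, so mitochondrial transcripts themselves were not analysed here.

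**Figure D5:**
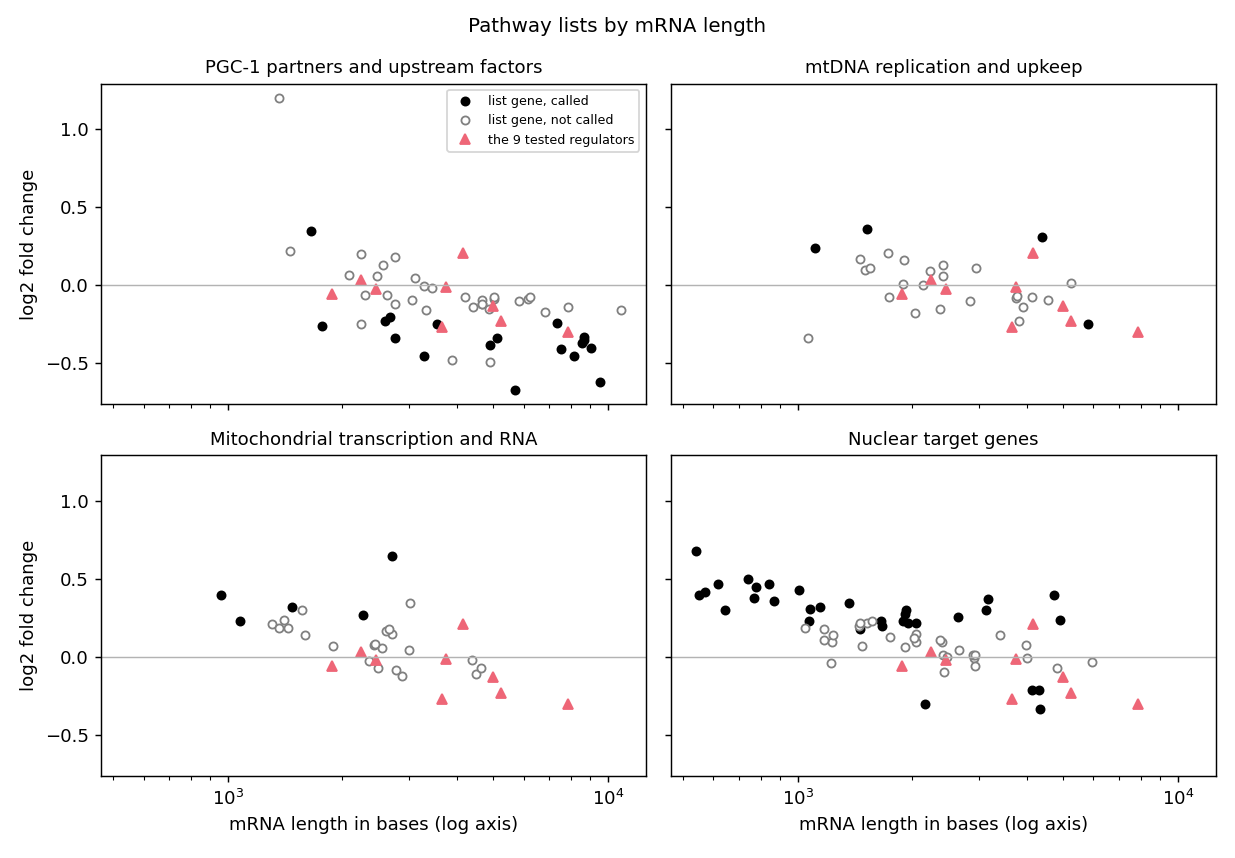
Log2 fold change, albiflorin over RANKL, against principal mRNA length in bases (log axis) for 4 of the pathway lists, filled points called and open points not, with the 9 tested regulators as triangles in each panel. Short mRNAs of the nuclear targets lie mostly above 0, long mRNAs of the partners list lie mostly below 0, and Tfam and Esrra are the regulators above 0.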

How the data were processed

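Reads per gene from 6 RAW264.7 libraries (3 RANKL, 3 albiflorin) were analysed. The authors deposited whole-number counts and FPKM values per gene; these FPKM equal counts over the listed gene length and 1 total per library that differs from the column total by -0.95% to 1.65%. The submitters' processing notes name HISAT2 2.2.1, fastp, CASAVA 1.8, DESeq2 1.42.0 and featureCounts 2.0.6-p3; no genome build is named in the sources used here. Gene identifiers carry Ensembl's prefix for the C57BL/6NJ strain, and member coordinates are those of the deposited table. Rows without a biotype (825) took 1.95% to 2.15% of counts. Replicates differed by more than sampling noise (chi-square per degree of freedom 3.79 to 9.24).

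Counts were tested with edgeR 4.0.16 in R 4.3.3 (filterByExpr, TMM, quasi-likelihood F-test on group). The code was also run on simulated counts with a fixed dispersion and with changes larger than those of the regulators. That run therefore does not gauge calls of the size reported here. CPM use TMM-scaled library sizes, fold changes are albiflorin over RANKL, and SE is the absolute log2 fold change over the square root of F. Length trends were lowess fits per library (span 0.3, genes over a log2 CPM of 3) on listed gene length or on the principal mRNA length in GENCODE M21. The mRNA length was matched by symbol for 80.7% of tested genes, and the others took the gene-length trend. Where a gene had several principal transcripts the longest was used, which gave 2701 bases for Slirp and 4398 for Ssbp1. Values with the mRNA-length trend removed depend on the length so assigned, and whether the cells made these transcripts was not tested. Alternatives numbered 17, limma 3.58.1 and DESeq2 1.42.0 among them.

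The members, the 5 pathway lists and 4 marker lists (215 of 230 symbols matched) were chosen with earlier results of these data known. All members were named, with up to 4 called genes of smallest p per pathway list and direction and 2 nearest genes per called member. Deviations from the group means were hardly correlated between same-numbered libraries (0.0219, -0.0433 and -0.0664). The labels do not say if a replicate number marks a shared culture or day.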

Additional observations from a re-analysis of the deposited data

How the results depend on the processing

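All 4 called regulators had the same sign in all 17 alternatives. With the replicate block, 0 regulators were higher and 2 lower, and 0 partners and 3 content gauges were higher. Tfam and Ppargc1b were not called there (adjusted p = 0.0531 and 0.0615, edgeR's quasi-likelihood test). The labels do not say if a replicate number marks a shared culture or day. With limma on log2(FPKM + 1) and log2(FPKM + 0.1), 0 regulators were higher and 1 (Pprc1) lower, with Tfam at adjusted p = 0.0539 and 0.0527 and Polg at 0.0627 and 0.0618. There, of all genes, 901 and 909 were lower, 0 partners and 1 replication gene were higher, 0 replication genes were lower, and 1 RNA gene was lower with the larger pseudocount. With the gene-length trend removed 945 of all genes were higher, 0 regulators were lower, 9 partners were lower, 0 RNA genes were higher and 16 targets were higher. With the mRNA-length trend removed 641 of all genes were higher and 718 lower, 0 regulators were lower, 0 partners were higher and 11 lower, 1 replication gene was higher and 0 lower, 1 RNA gene was higher, 6 targets were higher and 2 lower, and 1 content gauge was higher. Against a 1.2-fold change, a stricter test by construction, 193 genes were higher and 105 lower, against 1631 and 1496. There 0 regulators were called either way, 0 partners higher and 2 lower, 0 replication genes either way, 1 RNA gene and 1 target higher, 0 targets lower and 0 content gauges higher.

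Leaving out 1 library at a time gave 0 to 1 regulators higher and 2 to 3 lower, 984 to 1753 of all genes higher (984, 1010 and 1025 without albiflorin replicate 1, RANKL replicate 2 and albiflorin replicate 2) and 914 to 1644 lower (914 and 977 without RANKL replicate 2 and albiflorin replicate 1). Partners were 0 to 2 higher, replication genes 1 to 2 higher and 0 to 1 lower, RNA genes 2 to 6 higher, targets 18 to 31 higher and 1 to 4 lower, and content gauges 3 to 5 higher. Uncalled regulators changed sign: Esrra at -0.0086 without RANKL replicate 2, -0.03 without albiflorin replicate 2, -0.12 and -0.046 with the gene-length and mRNA-length trend removed; Nrf1 at 0.12 with the gene-length trend and Gabpa at 0.00091 with the mRNA-length trend removed. Tfb2m was at 0.03, 0.029 and 0.032 without RANKL replicate 1, RANKL replicate 3 and albiflorin replicate 3. Polrmt lay between -0.1 and 0.086 when libraries were left out, with 0.014, 0.021 and 0.086 without RANKL replicate 1, RANKL replicate 3 and albiflorin replicate 2, and at 0.019 and 0.045 with the trends removed. Other named genes also lost their call (edgeR's quasi-likelihood test) when 1 library was left out. Without RANKL replicate 2 these were Prkag1 (adjusted p = 0.141), Ssbp1 (0.0627), Lig3 (0.099), Rexo2 (0.0668), Mterf3 (0.0852), Acadvl (0.0508) and Phb2 (0.0771). Without RANKL replicate 1 they were Prkag1 (0.0737), Lig3 (0.128), Cpt1a (0.07) and Ogdh (0.0753), and without RANKL replicate 3 Cpt1a (0.0738), Ogdh (0.072) and Phb2 (0.0693). Without albiflorin replicate 1 they were Prkag1 (0.127), Lig3 (0.0506), Rexo2 (0.0802), Acadvl (0.0702), Cpt1a (0.0686), Ogdh (0.0658) and Phb2 (0.0894). Without albiflorin replicate 2 they were Prkag1 (0.0964), Ssbp1 (0.0532), Lig3 (0.132), Mterf3 (0.0763), Acadvl (0.0658), Ogdh (0.0643) and Phb2 (0.0775). Among other named genes, Dguok (-0.046), Rexo2 (-0.072 and -0.069), Cox8a (-0.016 and -0.085), Cox4i1 (-0.018) and Phb2 (-0.034) turned with a trend removed. Apart from the stricter test, the cause of these changes was not tested. No alternative moved the median of all genes by more than 0.0333 on the log2 scale. With 3 libraries a group and changes of at most 0.3, the calls of Tfam and Ppargc1b sit close to what these libraries resolve. Those of Polg and Pprc1 were lost with either length trend removed, at -0.062 and -0.09 for mRNA length. Ppargc1a lies below the counting limit.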
